A study of Drosophila melanogaster with 12 samples.

Results

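The proteasome subunit genes of Drosophila melanogaster were taken as all protein-coding genes of the Ensembl BDGP6 annotation whose symbol starts with Prosalpha, Prosbeta, Rpn or Rpt followed by a number. This rule found 48 of 13968 protein-coding genes. Of these, 32 have a symbol that ends with the number and are called constitutive here, and 16 carry further letters (T, R or similar) and are called paralogs. Pol II phosphorylated on Serine 5 of its C-terminal domain (Pol II S5) was mapped by ChIP-seq in Kc167 cells, a female line of embryonic origin described by the study as embryonic hemocyte cells. AGO2 KD cells had received 100 pmol of siRNA against AGO2, LaminB KD cells 2 μg of dsRNA against LaminB, and mock cells were transfected with neither, so that the 3 groups share the transfection and were collected 3 days later. Each group has 2 immunoprecipitated libraries with a peak list each, which gives 6 lists. The labels do not say whether replicates came from separate cultures, so the spread between them may be technical. Each gene was described in each list by the covered share, which is the percentage of the gene's bases from its annotated start to its end that lie under peaks, and the promoter peak, which is a peak within 1500 bp of an annotated start on either side.

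The proteasome is the cell's main machine for degrading proteins tagged with ubiquitin. Its barrel-shaped core is built of rings of alpha subunits, which gate the entrance, around rings of beta subunits, some of which carry the proteolytic sites. A regulatory particle caps the barrel. The base of this particle holds the Rpt ATPases, which unfold the substrate, together with Rpn subunits that bind ubiquitin, and the lid holds further Rpn subunits, among them the enzyme that removes the ubiquitin chain. Nearly every cell type needs all constitutive subunits, and Drosophila has additional copies of several of them, many of which are known to be expressed in the male germline. The 32 constitutive genes comprise 7 alpha, 7 beta and 6 Rpt genes, 4 Rpn genes of the base (Rpn1, Rpn2, Rpn10 and Rpn13) and 8 Rpn genes of the lid. The 16 paralogs comprise 5 alpha, 6 beta, 3 Rpt and 2 Rpn genes. Proteins translated from the coding sequences of the paralogs other than Prosalpha1R were 38.4% (Rpn13R) to 88.7% (Rpt6R) identical to those of their constitutive counterparts.

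The promoters of the constitutive genes and of the paralogs differed in the motifs they held. The DNA replication-related element (DRE, TATCGATA), a palindrome bound by the factor DREF and known from housekeeping promoters, was searched on both strands between 250 bp before and 50 bp after the annotated start. It was present in 12 of 32 constitutive promoters (37.5%) and in 0 of 16 paralog promoters, against 9.36% of all 13968 protein-coding promoters. In 7 of the 12 genes it lay within 50 bp of the start on either side. The searched window can also hold the promoter of a neighbour. A divergent start lay within 500 bp in 18 of 32 constitutive genes and 2 of 16 paralogs, with no share computed for all genes. In Prosbeta1, for example, the DRE began at position −121, and the divergent start of Rrp42 lies 121 bp away. Which gene a match belongs to was not tested. Ohler motif 1 (core GGTCACAC), another element of housekeeping promoters, was matched in 5 constitutive promoters (15.6%) and in no paralog promoter, against 7.69% of all promoters. The stretches below run from 120 bp before to 30 bp after the start. They are shown for 5 constitutive genes picked for their DRE and for the paralogs of those among them that have one. Whether the DRE is linked to covered share or promoter peaks was not tested. The stretches were read 5′ to 3′ along the gene's strand from the RefSeq Release 6 assembly, the assembly of dm6, and capitals mark the DRE and the Ohler motif 1 core.
Prosalpha6, constitutive alpha subunit, chr2L:10221231-10221380, + strand: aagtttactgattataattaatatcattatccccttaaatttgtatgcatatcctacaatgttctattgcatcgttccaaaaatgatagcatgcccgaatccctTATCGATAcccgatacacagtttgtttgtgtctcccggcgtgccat
Prosalpha6T, its paralog, chr2L:13231919-13232068, + strand: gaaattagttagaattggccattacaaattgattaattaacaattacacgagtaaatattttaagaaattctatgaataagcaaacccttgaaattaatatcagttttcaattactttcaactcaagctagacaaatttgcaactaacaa
Prosbeta2, constitutive beta subunit, chr3L:14999831-14999980, + strand: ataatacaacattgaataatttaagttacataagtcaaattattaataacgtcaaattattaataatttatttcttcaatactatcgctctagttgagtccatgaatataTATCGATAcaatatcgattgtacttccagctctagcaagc
Prosbeta2R1, its paralog, chrX:5808834-5808983, + strand: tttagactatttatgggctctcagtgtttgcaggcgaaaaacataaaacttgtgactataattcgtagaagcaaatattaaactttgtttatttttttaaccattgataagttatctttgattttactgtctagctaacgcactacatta
Prosbeta2R2, its other paralog, chr3R:5219499-5219648, - strand: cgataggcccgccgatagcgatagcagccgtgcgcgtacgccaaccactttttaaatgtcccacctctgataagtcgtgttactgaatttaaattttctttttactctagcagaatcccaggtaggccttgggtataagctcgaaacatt
Prosbeta6, constitutive beta subunit, chr3L:16610389-16610538, - strand: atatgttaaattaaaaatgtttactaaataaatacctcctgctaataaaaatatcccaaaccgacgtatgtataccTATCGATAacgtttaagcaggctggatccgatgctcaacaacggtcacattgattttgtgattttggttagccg
Rpt5, constitutive ATPase, chr3R:23752756-23752905, + strand: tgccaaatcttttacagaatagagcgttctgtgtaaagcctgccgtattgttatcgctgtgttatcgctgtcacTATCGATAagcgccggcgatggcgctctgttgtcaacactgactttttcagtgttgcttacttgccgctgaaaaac
Rpn7, constitutive lid subunit, chr3R:22462025-22462174, - strand: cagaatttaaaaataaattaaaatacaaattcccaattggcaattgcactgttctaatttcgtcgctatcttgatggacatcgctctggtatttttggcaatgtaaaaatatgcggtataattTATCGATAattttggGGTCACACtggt

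Counted from the annotated start, the DRE in the printed stretches began at position −16 in Prosalpha6, −10 in Prosbeta2, −44 in Prosbeta6 and −46 in Rpt5. In Rpn7 it began at base 4 of the transcribed sequence and was followed by the motif 1 core at base 19. The TATA box, searched as TATAAA, was found in 13 constitutive promoters (40.6%) and 5 paralog promoters (31.2%), against 45.8% of all promoters. The initiator (TCAGT) was found in 56.2% of constitutive and 50% of paralog promoters, against 51.5% of all. TGACNNNGC, the core of the antioxidant response element through which the factor encoded by cnc acts on proteasome genes, was found in 5 constitutive promoters (15.6%) and 1 paralog promoter (Prosbeta4R2), against 8.62% of all. In Prosbeta3 and Rpn1 this match overlapped the motif 1 core. GAGAG, bound by GAGA factor, was less frequent in constitutive promoters (3 of 32, 9.38%) than in paralog promoters (6 of 16, 37.5%) or all promoters (29.7%), and CACGTG (E-box) was found in neither class, against 4.20% of all. A match is a description of the letters and no test of binding was made.

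**Figure D1:**
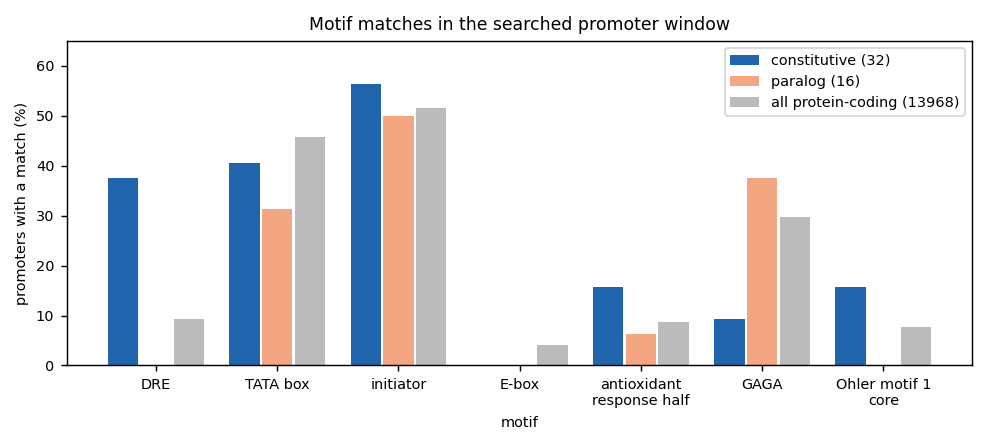
Percentage of promoters with at least 1 match to each of 7 motifs (y axis) for the 32 constitutive subunit genes, the 16 paralogs and all 13968 protein-coding genes. The DRE was matched in 37.5% of constitutive promoters, no paralog promoter and 9.36% of all promoters, and the GAGA motif in 9.38%, 37.5% and 29.7% of them.

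Peak lists differed in extent. They held 5108 (LaminB KD replicate 2) to 8541 (LaminB KD replicate 1) peaks and covered 4.19 to 14.6 Mb, with both LaminB KD libraries at the extremes, and read depth is not given in them. The knocked-down genes themselves were covered over 6.67% and 9.97% (AGO2, in AGO2 KD) against 7.20% and 7.39% in mock, and over 82.5% and 23.5% (Lam, in LaminB KD) against 72.5% and 77.4% in mock. RNA interference acts after transcription, so these values do not check the knockdown. A promoter peak in all 6 libraries was present at 9 of 10 hemocyte markers, against 45.4% of all protein-coding genes, and NimC1 had none. Among testis markers it was present at 3 of 12 (ocn, bol and mia), and 4 of 12 had one in any library, against 61.1% of all protein-coding genes. In covered share, 9 of 12 testis markers and 1 of 10 hemocyte markers were at 0% in all 6 libraries, against 43.4% of all protein-coding genes.

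Most constitutive proteasome genes were occupied by Pol II S5 and most paralogs were not. A promoter peak was present in all 6 libraries at 31 of 32 constitutive genes, against 45.4% of all protein-coding genes. Only Prosalpha1 lacked one, and it lacked it in every library. Among paralogs 3 of 16 had a promoter peak in any library, against 61.1% of all protein-coding genes. With the libraries trimmed to the same covered length, 19 constitutive genes had a promoter peak in all 6 libraries, and with the upper 50% of peaks by score 1 paralog had one in any. The covered share averaged 95.0% ± 0.371 over the 32 constitutive genes and 2.15% ± 0.346 over the 16 paralogs in mock cells (SD over libraries, n = 2), a difference of 92.9 points. Over all protein-coding genes it was 20.1% and 24.0% in the mock libraries. The median length was 1390 bp for the constitutive genes and 1282 bp for the paralogs.

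**Figure D2:**
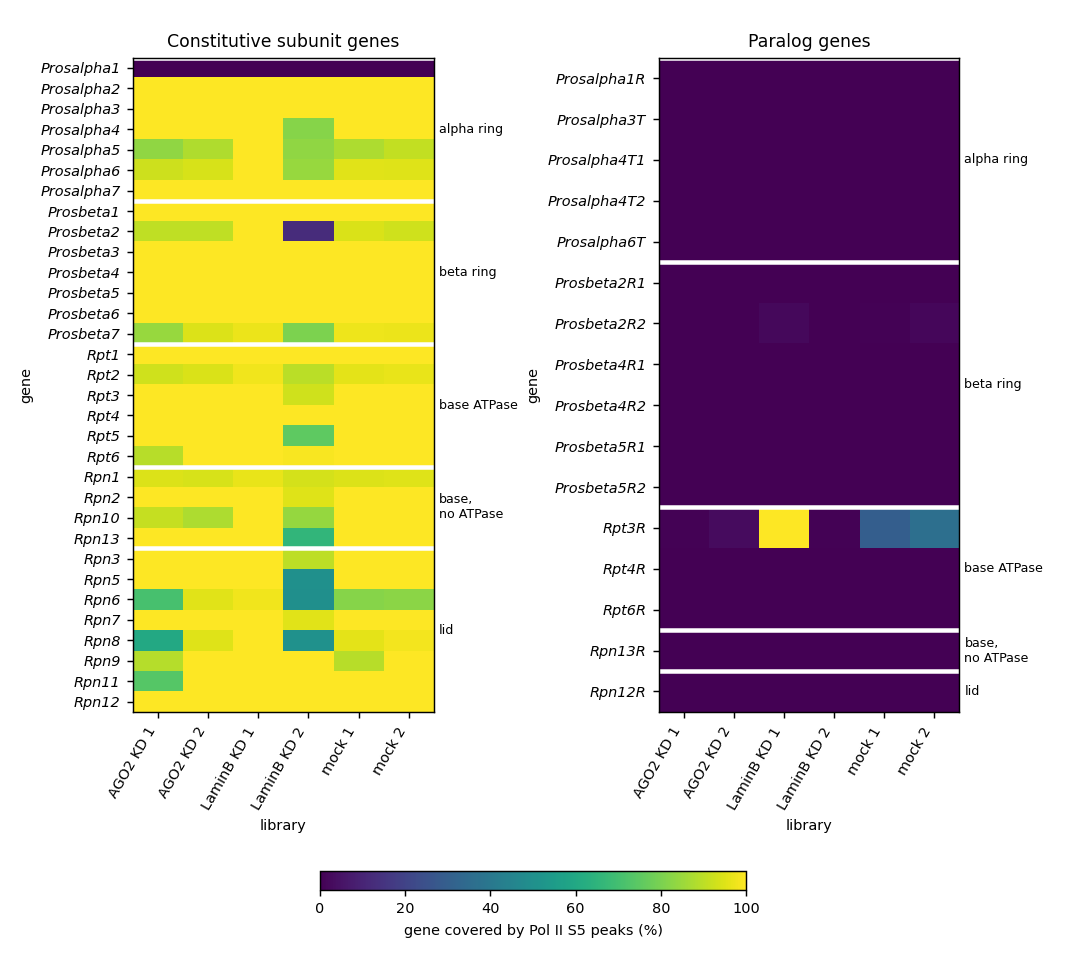
Covered share of each of the 32 constitutive genes (left) and 16 paralogs (right) in the 6 libraries (columns), by place in the proteasome; yellow is 100% and dark blue 0%. Constitutive genes other than Prosalpha1 lay at or near 100% in most libraries, with the lowest values in LaminB KD replicate 2, while 14 of 16 paralogs, the repeated copy Prosalpha1R among them, lay at 0% in all 6.

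Prosalpha1 and its paralog Prosalpha1R could not be measured. They form a tandem pair on chromosome 2R (dm6, Prosalpha1 chr2R:7827303-7828678 and Prosalpha1R chr2R:7830413-7831771, both on the minus strand), whose 1359 aligned base pairs are all identical and whose 244-residue proteins are identical. The copies lie within repeated runs of 3112 bp each. Every stretch of 50 bp, the length of the reads, in either gene occurs elsewhere in the genome, whereas none does in any of the other 46 members. The authors removed reads of low mapping quality, which takes away reads that match more than 1 place equally well. The 0% of Prosalpha1 and Prosalpha1R in all 6 libraries therefore does not speak to their Pol II S5 level. Without Prosalpha1, the constitutive mean in mock was 98.1% ± 0.383 (SD, n = 2 libraries), with a promoter peak in all 6 libraries at 31 of 31 genes. The promoter peak of Prosalpha1R, present in 5 libraries, was 428 to 780 bp wide and began 1812 to 1970 bp upstream of the gene.

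Within the core, coverage was complete for most genes. Of the alpha genes, Prosalpha2, Prosalpha3 and Prosalpha7 were covered over 100% of their length in all 6 libraries. Prosalpha5 had 83.4% and 88.1% in AGO2 KD cells, 100% and 83.3% in LaminB KD cells, and 87.7% and 90.9% in mock. Among the beta genes, 5 of 7 were at 100% in all 6 libraries, namely Prosbeta1 and Prosbeta5, which carry the caspase-like and chymotrypsin-like sites, and Prosbeta3, Prosbeta4 and Prosbeta6. The lowest beta gene by the mean over libraries was Prosbeta2, which carries the trypsin-like site. It had 90.3% and 90.6% in AGO2 KD cells, 100% and 12.6% in LaminB KD cells, and 94.4% and 92.9% in mock, so that LaminB KD replicate 2 lay far under the other 5 libraries.

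In the regulatory particle, Rpt1 and Rpt4 were at 100% in all 6 libraries. The lowest ATPase was Rpt2, with 92.6% and 94.2% in AGO2 KD cells, 97.9% and 89.7% in LaminB KD cells, and 95.7% and 96.9% in mock. In the base, Rpn2, a scaffold subunit, was at 100% in every library except LaminB KD replicate 2, where it had 95.1%. The lowest Rpn gene of the base by the mean over 6 libraries was Rpn10, a ubiquitin receptor, with 91.0% and 87.7% in AGO2 KD cells, 100% and 84.3% in LaminB KD cells, and 100% in both mock libraries. Without LaminB KD replicate 2 its mean was 95.7%, above that of Rpn1 (95.0%). In the lid, Rpn12 was at 100% throughout. The lowest lid gene was Rpn6, which braces the lid against the core, with 70.9% and 95.7% in AGO2 KD cells, 97.7% and 49.7% in LaminB KD cells, and 81.7% and 82.7% in mock. Rpn11, the deubiquitinase of the lid, had 73.6% in AGO2 KD replicate 1 and 100% in the other 5 libraries.

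In all, 11 of 32 constitutive genes (34.4%) were covered over their whole length in all 6 libraries, against 1.85% of all protein-coding genes and 2.04% of the 7838 protein-coding genes within their range of lengths (914 to 4500 bp). The 20 constitutive genes that were covered in part had their lowest value in LaminB KD replicate 2 in 17 cases and in AGO2 KD replicate 1 in 3 cases. Across the 31 genes with peaks, covered share and gene length had a Spearman's rho of −0.48 in LaminB KD replicate 2 and between −0.29 and −0.12 in the other 5 libraries, as a description over genes that share each library.

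**Figure D3:**
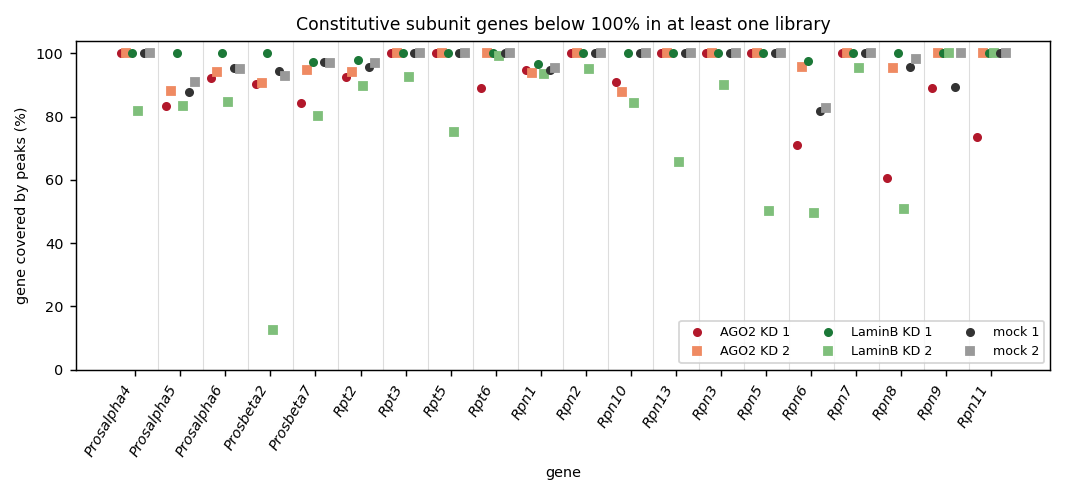
Covered share (y axis, %) of the 20 constitutive genes that were below 100% in at least 1 library and above 0, with a point for each of the 6 libraries. LaminB KD replicate 2 (light green squares) was the lowest library in 17 of the 20 genes, down to 12.6% in Prosbeta2.

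The peaks at constitutive genes were wide and usually reached into neighbouring genes. The strongest promoter peak had a median width over the 31 genes of 2651 and 3352 bp in AGO2 KD, 4687 and 2056 bp in LaminB KD, and 3610 and 3903 bp in mock. It held the start of another protein-coding gene at 23 and 25 of 31 genes in AGO2 KD cells, 28 and 18 in LaminB KD cells, and 27 and 28 in mock. Another protein-coding start lay within 500 bp in 20 of 32 constitutive genes, 18 of them in a divergent arrangement. Among the paralogs 3 of 16 had such a start, 2 of them in a divergent arrangement. The median distance to the nearest other protein-coding start was 379.5 bp for the constitutive genes and 2470.5 bp for the paralogs. Neither these distances nor the share of peaks that hold another start were computed for all protein-coding genes. The part of a wide peak that belongs to the subunit gene rather than to its neighbour was not tested.

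**Figure D4:**
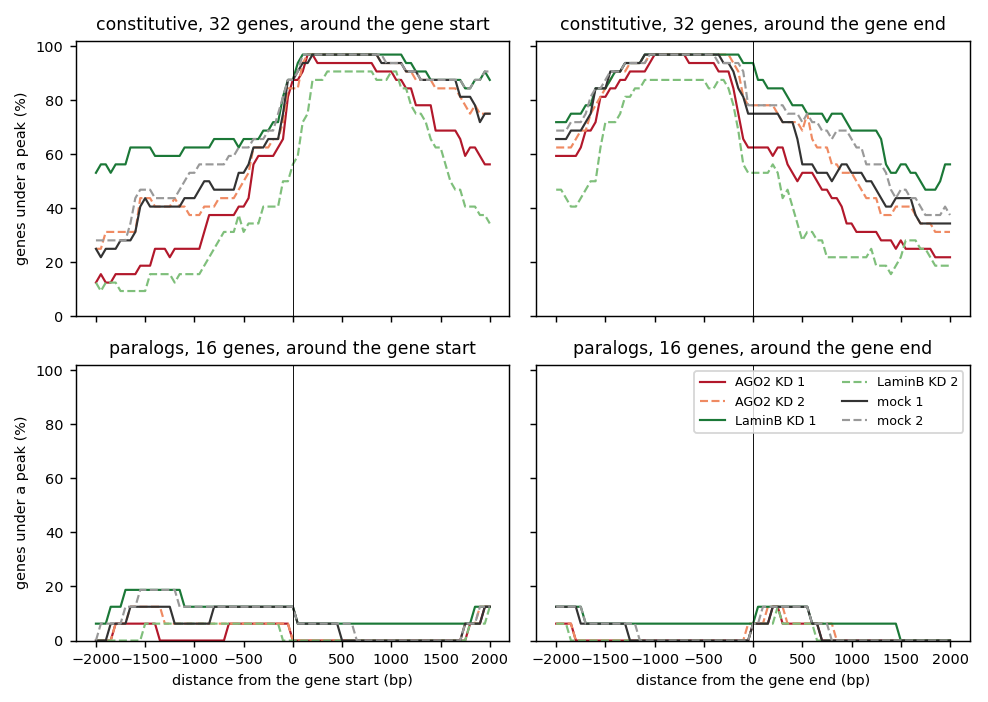
Percentage of genes under a peak (y axis) at each distance from the annotated gene start (left) and gene end (right), for the 32 constitutive genes (top) and the 16 paralogs (bottom), with a line per library. Coverage of the constitutive genes rose toward the start and extended past the end in all 6 libraries. In LaminB KD replicate 1 it was already 53.1% at 2000 bp upstream. In LaminB KD replicate 2 it was 56.2% at the start and 87.5% at 200 bp downstream. At 500 bp past the end it was lowest in LaminB KD replicate 2 (28.1%).

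Peak height was described by the fold over local background and its percentile among all peaks of the same library, since separate peak calls share no common scale. The promoter peaks of the 31 genes had a median fold of 4.46 and 4.18 in AGO2 KD cells, 5.13 and 3.35 in LaminB KD cells, and 4.10 and 4.30 in mock. Their median percentile was 62.6 and 73.3 in AGO2 KD cells, 86.2 and 52.4 in LaminB KD cells, and 66.7 and 74.9 in mock. The AGO2 KD percentiles overlapped those of mock, and the LaminB KD libraries lay on either side of mock. Prosalpha6 had the highest percentile of the constitutive genes by its median over libraries (92.2). Its promoter peak had a fold of 5.09 and 5.49 in AGO2 KD cells, 6.58 and 4.30 in LaminB KD cells, and 5.25 and 6.40 in mock, which were percentiles of 78.0 to 96.8.

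**Figure D5:**
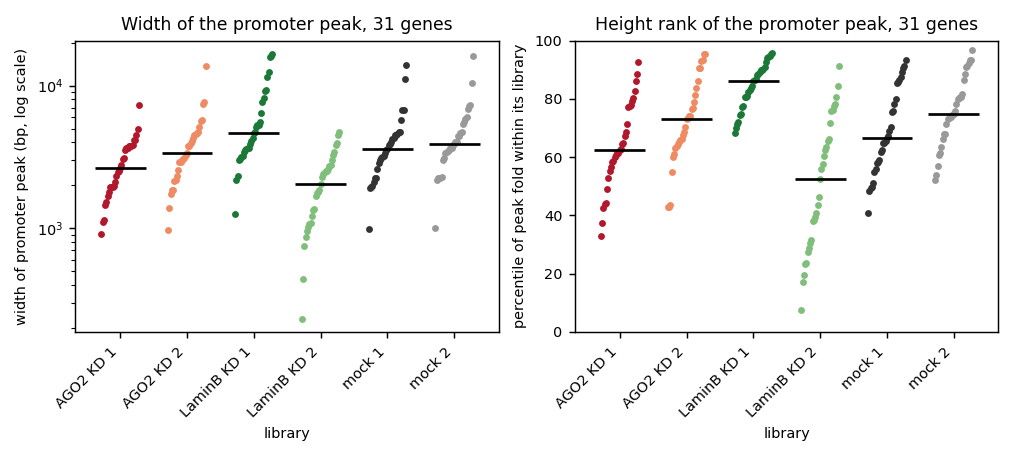
Width in bp on a log scale (left) and percentile of fold within its library (right) of the strongest promoter peak of the 31 constitutive genes that have one, a point per gene and a bar at the median. LaminB KD replicate 1 had the widest peaks (median 4687 bp) and LaminB KD replicate 2 the narrowest (median 2056 bp).

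Upon AGO2 depletion, 7 constitutive genes had a lower covered share in both AGO2 KD libraries than in both mock libraries, and 0 had a higher one. That is 21.9% of the 32 genes, against 23.8% of all protein-coding genes called lower in the same way and 42.5% of the protein-coding genes with a promoter peak in all 6 libraries. Across all protein-coding genes 0.251% were called higher. Of the constitutive genes 19 were at 100% and 1 at 0% in all 4 libraries of this comparison, where no difference can be seen. The 22 at 100% in both mock libraries could not be called higher. The counts are therefore not to be read against these shares. Both AGO2 KD lists covered less of the genome (5.57 and 8.01 Mb) than both mock lists (8.27 and 10.5 Mb). With libraries trimmed to the same covered length, 5 constitutive genes were called lower and 1 higher. No share of all protein-coding genes was computed for that setting. Whether the calls follow from the difference in extent was not tested.

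The widest gap between the groups was at Rpn10, with 91.0% and 87.7% in AGO2 KD against 100% in both mock libraries. In mock, the peak over Rpn10 ended 1894 and 1969 bp beyond the gene's end, while in AGO2 KD it ended 142 and 140 bp short of it. Prosbeta2 came next, with 90.3% and 90.6% in AGO2 KD against 94.4% and 92.9% in mock. The Prosbeta2 call was lost with the upper 50% of peaks by score, where it had 0% in both AGO2 KD libraries against 0% and 92.9% in mock, and with the same covered length, where all 4 values were 0%. Prosbeta7, a structural beta subunit, had 84.4% and 94.8% in AGO2 KD against 97.4% and 97.0% in mock. Rpt2 had 92.6% and 94.2% in AGO2 KD against 95.7% and 96.9% in mock, and Prosalpha6 had 92.2% and 94.1% against 95.4% and 95.1%. In these 5 genes the groups did not overlap, with gaps of 8.97, 2.34, 2.29, 1.48 and 1.00 points.

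Rpn8, the partner of Rpn11 in the lid, and Rpn1, a scaffold of the base that binds ubiquitin-like domains, were also called lower, with gaps of 0.53 and 0.10 points. The spread within AGO2 KD was large at Rpn8, with 60.5% and 95.2% in AGO2 KD against 95.8% and 98.2% in mock, and the call was lost with the same covered length. For every gene the exact two-sided permutation test of 2 libraries against 2 gave p = 0.333 where the groups did not overlap, which is the smallest it allows, so no single gene can be called significant. The mean covered share of the 32 genes was 92.9% ± 2.70 after AGO2 depletion and 95.0% ± 0.371 in mock cells (SD over libraries, n = 2), a difference of −2.11 points. Replicate 2 of AGO2 KD (94.82%) lay above mock replicate 1 (94.76%), so that the groups overlapped, while all protein-coding genes differed by −5.38 points. The proteasome difference was −0.20 points without AGO2 KD replicate 1 and −4.02 points without AGO2 KD replicate 2. Leaving out replicate 2 also raised the number called lower to 12, for which the share of all protein-coding genes was not computed. The proteasome difference was −6.50 points with the upper 50% of peaks by score, and its sign turned with the same covered length (7.22 points).

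Upon LaminB depletion, 0 constitutive genes were called lower and 0 higher, against 1.3% and 0.158% of all protein-coding genes. Among protein-coding genes with a promoter peak in all 6 libraries 2.1% were called lower. In all 4 libraries of this comparison 12 constitutive genes were at 100% and 1 at 0%, where no difference can be seen. The 22 at 100% in both mock libraries could not be called higher. The LaminB KD lists covered 14.6 and 4.19 Mb, on either side of mock (8.27 and 10.5 Mb), while a call needs both on one side. The counts of 0 are therefore not to be read as a lack of change. Rpn8 had 100% and 50.7% in LaminB KD against 95.8% and 98.2% in mock, and Rpn5, another lid subunit, had 100% and 50.3% against 100% in both mock libraries. The ubiquitin receptor gene Rpn13 had 100% and 65.6% in LaminB KD against 100% in both mock libraries. The mean over the 32 genes was 90.0% ± 9.19 after LaminB depletion and 95.0% ± 0.371 in mock cells (SD over libraries, n = 2), a difference of −4.98 points that is smaller than the spread within LaminB KD. Without LaminB KD replicate 2 it was 1.52 points with 7 genes higher, and without LaminB KD replicate 1 there were 18 genes lower. For neither count was the share of all protein-coding genes computed, so they are not to be read as a result about these genes. Counts of 0 were exact comparisons of position with no p-value, and the permutation test allows none under 0.333.

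Replicate 2 of LaminB KD also differed in where the peaks began. In LaminB KD replicate 2, the outermost annotated start was under a peak at 18 of 31 constitutive genes with a promoter peak (58.1%). It was under a peak at 28 of 31 in LaminB KD replicate 1, against 28 of 31 in each mock library. The AGO2 KD libraries had 28 and 27 of 31. Over all protein-coding genes with a promoter peak this share was 52.5% in LaminB KD replicate 2 and 65.7% to 73.6% in the other 5 libraries. These values leave out the further starts of genes that have several. With any annotated start counted, 22 constitutive genes had a start under a peak in all 6 libraries. The depth and immunoprecipitation of that library, which has the fewest peaks, cannot be told apart from LaminB depletion with 1 such library.

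Of the 15 paralogs other than Prosalpha1R, 13 were covered over 0% in all 6 libraries, against 43.4% of all protein-coding genes. They include Prosalpha3T and Prosalpha6T, whose counterparts Prosalpha3 and Prosalpha6 had a promoter peak in all 6 libraries, and both paralogs each of Prosalpha4, Prosbeta4 and Prosbeta5. The exceptions were Prosbeta2R2 and Rpt3R. Prosbeta2R2 (dm6, chr3R:5217751-5219528, minus strand) had 0% in each library of AGO2 KD, 2.08% and 0% in those of LaminB KD, and 0.450% and 1.63% in mock. Its promoter peak began 653 to 1717 bp upstream in the 6 libraries and held the start of the divergent gene CG1116, which lies 129 bp away. Prosbeta2 itself had 12.6% to 100%, as given above.

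Rpt3R (dm6, chr3R:9754735-9756510, minus strand), a paralog of the ATPase gene Rpt3, had 0.394% and 2.98% in AGO2 KD cells, 100% and 0.450% in LaminB KD cells, and 30.1% and 36.7% in mock. Rpt3 had 92.6% in LaminB KD replicate 2 and 100% in the other 5 libraries. The start of Alg12 lies 19 bp from that of Rpt3R. In mock, coverage ran without a break over the first 492 and 625 bp of Rpt3R and over 42 and 27 bp at its end. Its start was not covered in AGO2 KD or in LaminB KD replicate 2. The strongest promoter peak of Rpt3R began 1723 to 1769 bp downstream of its start, near the end of the 1776 bp gene, in every library but LaminB KD replicate 1, and there a peak of 4901 bp spanned the whole gene. Both exceptions were called lower in AGO2 KD, with gaps of 0.450 points (Prosbeta2R2) and 27.1 points (Rpt3R), which is 2 of 16 paralogs, against the 23.8% of all protein-coding genes. The other 14 paralogs were at 0% in all 6 libraries and could not be called lower, so the count is not to be read against this share. Both calls were lost with the same covered length and when the upper 50% of peaks by score were used, and that of Rpt3R also with the same number of peaks, where mock replicate 2 had 1.52%. Whether these values come from the paralogs or from their neighbours was not tested. Other tissues, testis among them, were not examined.

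The other genes of the pathway were set beside the subunit genes as a list of 22, all of which were matched. A promoter peak in all 6 libraries was present at 21 of 22, the exception being ntc, the substrate receptor of a ubiquitin ligase known from sperm individualization, with 4 libraries. Only RpS27A, which encodes ubiquitin fused to a ribosomal protein, was at 100% in all 6 libraries. In AGO2 KD 8 of 22 (36.4%) were called lower and 0 higher, against 23.8% and 0.251% of all protein-coding genes and 42.5% lower among genes with a promoter peak in all 6 libraries. Usp14, a deubiquitinase of the proteasome, had 65.2% and 70.5% in AGO2 KD against 100% in both mock libraries, and PI31, a proteasome regulator, had 23.3% and 29.4% against 47.6% and 46.8%. The gene cnc had 18.0% and 28.5% in AGO2 KD against 32.4% and 33.8% in mock, and TER94, the segregase known as p97 in mammals, had 66.5% and 67.7% against 68.6% and 79.0%. The remaining 4 were Rad23, Pngl, Uba1 and Ubi-p63E. In LaminB KD 1 of 22 was called lower, against 1.3% of all protein-coding genes and 2.1% of those with a promoter peak in all 6 libraries. It was Pomp, the assembly chaperone of the core, with 60.7% and 52.0% in LaminB KD against 61.1% and 61.2% in mock.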

How the data were processed

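Pol II S5 ChIP-seq was analysed from 6 deposited peak lists, 1 per immunoprecipitated library. Per the submitters' processing notes, reads were handled with cutadapt 1.10, Bowtie2, Picard 2.11.0 and MACS2 2.1.1.20160309 on dm6; the study's methods describe removal of reads of low mapping quality and broad peak calling per replicate against input. The authors deposited for each peak a score (10 times the −log10 q-value, truncated), a fold ratio over local background, and −log10 p-values and q-values, each averaged over the region. Lists were called separately and share no common scale, so depth and immunoprecipitation affect the number and width of peaks. Depth is unknown, as no read counts were used here.

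Covered shares and promoter peaks were computed with Python 3.11.15 and NumPy 2.4.6 for 13968 protein-coding genes of Ensembl release 115. Overlapping peaks were counted once. A gene was called lower or higher where both knockdown libraries lay on one side of both mock libraries. The calling was run on simulated lists in which unchanged genes had the same share in every library. That run checks the computation and cannot give the rate of wrong calls in the real lists. Counts over members carry no p-value. Members and lists were chosen with earlier results of these data known. Genes were named by rule: the highest and lowest constitutive gene by mean covered share in each role group, those lacking a promoter peak, paralogs with one, the 5 largest gaps in AGO2 KD, all called in LaminB KD, and the highest median fold percentile. Prosalpha5, Rpn5, Rpn11, Rpn13, Rpn8 and Rpn1 were chosen after their values were seen, as were the pathway genes given with values. Motifs were searched in the RefSeq Release 6 assembly. Input libraries were not analysed here. Alternatives were a q-value of 0.01, equal peak numbers or covered length, the upper 50% of peaks by score, joining peaks within 500 bp, other promoter windows, gene bodies from 500 bp downstream of the start in genes over 1000 bp, a gap of 10 points, a replicate block and leaving out each library.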

Additional observations from a re-analysis of the deposited data

How the results depend on the processing

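Of 113 values of 9 results under alternatives, 91 stayed within the replicate spread or within 1.5 times the count. No peaks of a library lay within 500 bp of each other, so joining them changed nothing and says nothing of stability. With libraries trimmed to the same covered length, promoter peaks in all 6 libraries were left at 19 constitutive genes, the AGO2 KD minus mock difference was 7.22 points (reversed), the constitutive minus paralog difference in mock was 79.7 points, 1 constitutive gene was higher in AGO2 KD, and LaminB KD had 2 lower and 1 higher. With the upper 50% of peaks by score, 1 paralog had a promoter peak, the AGO2 KD and LaminB KD differences were −6.50 and −12.2 points, and the constitutive minus paralog difference was 93.5 points. That difference was 94.0 points with the same number of peaks, 93.2 points from 500 bp downstream of the start, and 95.8 points without Prosalpha1 and Prosalpha1R, an alternative added after seeing the data. With a gap of at least 10 points, 0 constitutive genes were lower in AGO2 KD. The causes were not tested.

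Leaving out each library in turn, the AGO2 KD minus mock difference ranged between −4.02 and −0.20 points and the LaminB KD minus mock difference between −11.47 and 1.52 points (reversed without LaminB KD replicate 2). Constitutive genes lower in AGO2 KD numbered 7 to 12 and higher 0 to 1, and those lower in LaminB KD 0 to 18 and higher 0 to 7. Shares of all protein-coding genes called were not computed for any alternative, so such counts have no background. The labels do not say that replicate numbers mark a shared batch. Deviations of same-numbered libraries correlated over genes by 0.19 between AGO2 KD and mock and by −0.36 between LaminB KD and mock. With the replicate block, the AGO2 KD comparison had 8 constitutive genes lower and 0 higher and the LaminB KD comparison 1 lower and 0 higher. The mean of the paired differences equals the difference of the group means. The −2.11 and −4.98 points could therefore not change with the block and say nothing of stability, although they count among the values that stayed. With crossed numbers, added after seeing the data, AGO2 KD had 7 genes lower and 0 higher, and LaminB KD 0 lower and 0 higher. Depth limits genes at 100% or 0%, where no change can be seen.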

Other observations

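Ribosomal protein genes were taken by the first letters of their symbol (RpL, RpS or RpLP, and mRpL or mRpS) and set beside the 32 constitutive proteasome genes. Symbols with further letters after the number were kept, unlike in the constitutive set, so the sets are not alike. At 0% in all 6 libraries were 6 of 92 cytoplasmic and 1 of 73 mitochondrial genes, and 1 of 32 constitutive proteasome genes. A promoter peak in all 6 libraries was present at 31 of 32 constitutive proteasome genes, at 87 of 92 cytoplasmic ribosomal protein genes and at 64 of 73 mitochondrial ones. Whole-length coverage in all 6 libraries held for 34.4% of the constitutive proteasome genes, 42.4% of the cytoplasmic and 12.3% of the mitochondrial ribosomal protein genes.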
